A study of Bos taurus with 31 samples.

Results

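The genes of the cytosolic ribosomal proteins were followed in mammary epithelial organoids of dairy cows, the clusters of epithelial cells that remain when gland tissue is digested with enzymes and spun to remove fat and single cells. Members were taken by name, as every row of the count table called RPL or RPS with a number and an optional A, L, X or Y, plus RPLP0, RPLP1, RPLP2 and RPSA, with the S6 kinase genes left out. This gave 80 loci of 14084 in the table, 46 for the large (60S) subunit and 34 for the small (40S) subunit, under 76 gene symbols. RPL36A, RPS19, RPS6 and RPL36 each had 2 loci, which are told apart below by the length of the deposited locus in base pairs (bp). All 80 loci passed the filter on low counts.

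Biopsies came from 16 cows sampled as virgins at 14 months of age and again in mid-lactation, at 40 to 60 days. There were 15 virgin and 16 lactating libraries, because the animal of L495 gave only a lactating library. A library is named here by its stage, V or L, and the number of its animal. The breed is not given in the sources used here. The labels name no treatment, no genetic change and no pooling of animals, and the isolated organoids were frozen in a lysis reagent before RNA was extracted.

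Ribosomal proteins assemble with ribosomal RNA in the nucleolus into the 2 subunits that read mRNA and join amino acids. Most cells make them in near-equal amounts from short, very abundant mRNAs. These mRNAs begin with a terminal oligopyrimidine (TOP) motif, through which the kinase mTOR and the RNA-binding protein LARP1 set their translation and stability. In the mammary gland the ribosome carries the load of milk protein synthesis, and a few ribosomal proteins have related copies (paralogues) with their own regulation.

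Total counts, with rows of identical counts taken once, ranged from 12477568 (V479) to 38794104 (V509) in virgin and from 17637505 (L595) to 45478555 (L478) in lactating libraries. The 7 milk protein genes took 0.0281% to 0.682% of virgin and 0.243% to 51.5% of lactating counts. Marker sums of other cell types also differed with stage. The 6 endothelial markers, all 6 called higher in lactation, summed to 33.5 to 680.3 CPM (normalised counts scaled to the library total) in virgin and 236.7 to 1571 CPM in lactating libraries, and the 7 leukocyte markers, all 7 called higher, to 17.8 to 98.0 and 134.8 to 581.04 CPM. The 7 luminal markers summed to 1439 to 5620 CPM in virgin and 1119 to 2669 CPM in lactating libraries, with 4 called lower and 2 higher. The 6 basal markers summed to 910.9 to 5271 and 778.2 to 1657 CPM, with 2 called lower and 2 higher. The 5 fibroblast markers summed to 73.7 to 20369 and 359.3 to 1324 CPM, with 3 called lower and 1 higher, and 3 tested adipocyte markers to 2.02 to 170.0 and 27.1 to 1222 CPM, with 1 lower and 1 higher. V502 gave the highest virgin sums of fibroblast, endothelial and adipocyte markers, and the next were 1706 (V610), 280.3 (V479) and 50.1 CPM (V598). With the animal as a block, 0 fibroblast markers were lower and 1 higher, with a median log2 fold change of 0.11 in place of -1.34. Without TMM factors, a scaling explained below, 4 luminal markers were lower and 0 higher, and 2 basal markers lower and 1 higher. None of these tested markers was at 0 in all libraries, and their part in the results below was not tested. In such bulk samples, fewer cells of a type and less RNA per cell cannot be told apart.

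Ribosomal protein mRNA took a smaller share of the counts in lactation. The share was 5.03% ± 1.54 (SD, n = 15) in virgin and 3.07% ± 0.802 (SD, n = 16) in lactating libraries, and it was lower in lactation in 14 of the 15 animals with both stages. Virgin shares ran from 3.78% (V610) through a median of 4.46% to 9.03% (V479), and lactating shares from 2.00% (L479) through 2.91% to 4.81% (L504). The groups overlapped between the lowest virgin and the highest lactating library. When the milk protein genes were left out of the total, the lactating share was 4.11% ± 0.595 (SD, n = 16), with a range of 3.17% to 5.19%, against 5.03% ± 1.54 (SD, n = 15) in virgin libraries. It was then lower in lactation in 10 of 15 animals and higher in the animals of L502, L531, L598, L610 and L615.

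V479 at 9.03% and V581 at 8.17% stood apart, since the other 13 virgin libraries lay between 3.78% and 5.60%. Without these libraries, a choice made after their values were seen, the virgin share was 4.48% ± 0.536 (SD, n = 13). The difference between stages was then 1.41 percentage points in place of 1.96 points, and 0.377 points with the milk protein genes also left out of the total. The balance of the subunits moved little beside this, as the ratio of 60S to 40S protein counts was 1.46 ± 0.0372 (SD, n = 15) in virgin and 1.49 ± 0.0354 (SD, n = 16) in lactating libraries.

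**Figure D1:**
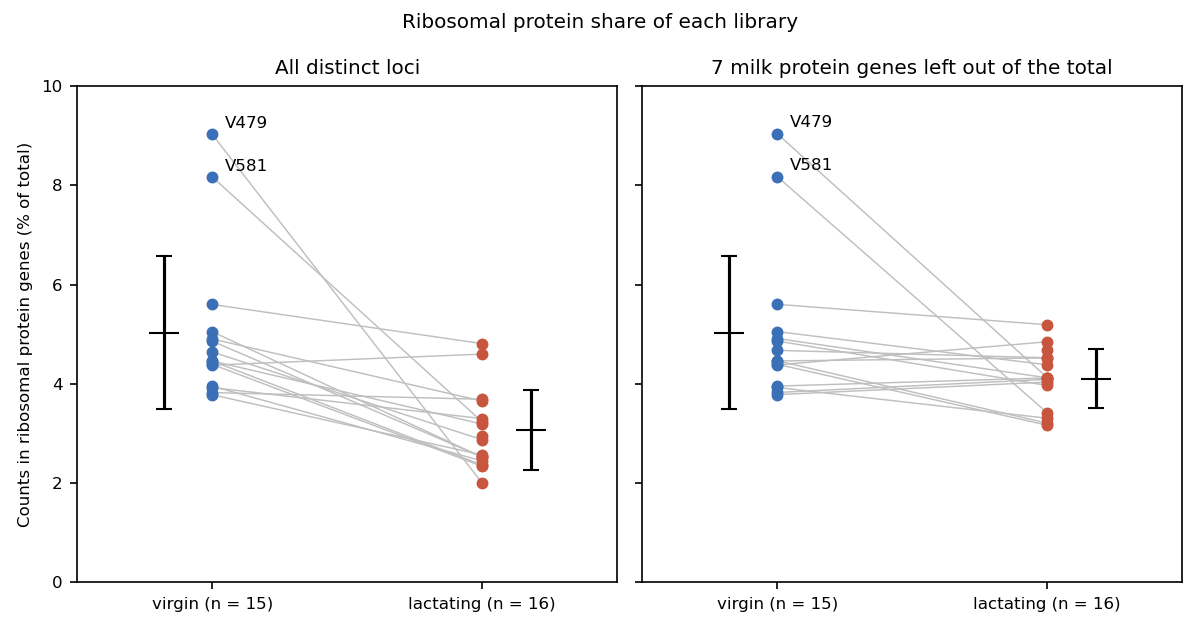
Percent of counts in ribosomal protein genes in each library, with all distinct loci in the total (left) and with 7 milk protein genes left out of it (right). Points are libraries, grey lines join the stages of an animal, and bars are the mean ± SD; V479 (9.03%) and V581 (8.17%) lie above all other virgin libraries, of which the highest is 5.60%, and the lactating mean is 3.07% on the left and 4.11% on the right.

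The rise in V479 and V581 was described gene by gene as the CPM over the median of the other 13 virgin libraries. Both were picked for the high summed share of these same loci, so many loci above the 13 follow in part from that choice. In V581 the rise was even: all 80 loci were above that median, with a median of 2.13-fold and a range of 1.05-fold to 3.06-fold, and 76 loci (95%) were above every one of the 13 libraries. Of all rows tested, 14.7% were above every one of the 13 libraries, and their median in V581 was 1.02-fold. RPS29 was highest at 3.06-fold, although at only 3.23 CPM. RPS27L was lowest at 1.05-fold.

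V479 was uneven. The median of the 80 loci was 2.73-fold, 74 loci were above the median of the 13 libraries and 6 below it, and 60 loci (75%) were above every one of the 13, against 28.3% of all rows, whose median in V479 was 1.00-fold. The acidic stalk protein RPLP2, which helps to recruit elongation factors, was at 6.70-fold (612.7 CPM against a virgin median of 99.5 CPM). RPL8, which lies close to the peptidyl transferase centre, was at 5.82-fold, RPS15 at 5.80-fold, RPL35 at 5.42-fold and RPS2 at 5.29-fold. By contrast RPL5, which enters the large subunit bound to the smallest ribosomal RNA and also binds the p53 regulator MDM2, was at 0.525-fold and had its lowest virgin value there (326 CPM against a virgin median of 620 CPM). RPS3A (0.549-fold), RPL7 (0.624-fold), RPL9 (0.654-fold), RPL36A of 1651 bp (0.661-fold) and RPL6 (0.714-fold) were also below the median in V479, yet all of these were above it in V581. The deposited loci of RPS2, RPS3A and RPL9 are 37.3, 6.82 and 2.87 times their RefSeq spans, so their counts cannot be assigned to these genes alone. The SD of the log2 fold over the 80 loci was 0.893 in V479 and 0.277 in V581.

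Several other values moved in these libraries. V479 had the fewest counts of the virgin group and its highest share of mitochondrially encoded genes (8.24%). The median of the 7 milk protein genes was at 218-fold in V479 and 0.033-fold in V581. Their summed shares, 0.145% and 0.0743%, lay within those of the other 13 (0.0281% to 0.682%). The median leukocyte marker was at 2.55-fold and 1.41-fold, and the median endothelial marker at 1.77-fold and 0.702-fold. The luminal markers summed to 5465 CPM in V479 and 5620 CPM in V581, above the 1439 to 4374 CPM of the other 13, and the basal markers to 5059 and 3731 CPM, within the range of the 13. Gene by gene, the median luminal marker was at only 1.09-fold in V479 and 1.31-fold in V581. The median basal marker was at 2.16-fold and 2.64-fold. Genes for small subunit assembly were low where the proteins were high, with a median of 0.632-fold in V479 and 0.641-fold in V581, and genes for large subunit assembly were at 0.974-fold and 0.762-fold. The part of depth and cell make-up in the values of V479 and V581 was not tested.

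**Figure D2:**
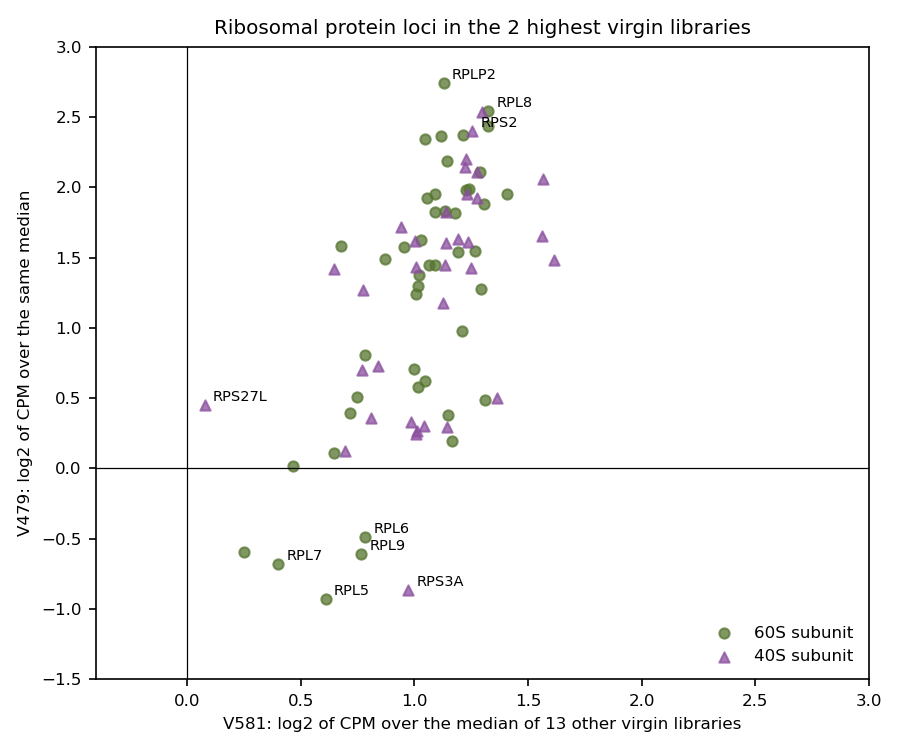
Each point is a ribosomal protein locus (circles 60S, triangles 40S), placed by its log2 CPM over the median of the other 13 virgin libraries in V581 (horizontal) and V479 (vertical). All 80 loci lie right of 0 in V581, while in V479 they spread from 0.525-fold (RPL5) to 6.70-fold (RPLP2), with 6 loci below 0.

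Next, each locus was compared between stages with edgeR's quasi-likelihood test on all 31 libraries, scaled by the trimmed mean of M values (TMM) and adjusted by the Benjamini-Hochberg method over all rows tested. A call means an adjusted p under 0.05, and a negative log2 fold change means lower in lactation. Of the 80 loci, 19 were called lower (23.75%), 1 was called higher (1.25%) and 60 were not called. Across all rows tested, 30.9% were called lower and 24.2% higher, so the share of ribosomal protein loci called was below the background in both directions. The median log2 fold change of the 80 loci was -0.26, against -0.08 over all rows. The range was narrow, from -0.59 (RPSA) to 0.33 (RPS27L), with 77 values negative and 3 positive. No locus had groups without overlap, which 1.93% of all rows had, and none moved the same way in all 15 animals.

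Much of this difference was not seen without V479 and V581. Both were picked for their high share of these same counts, so part of that change follows from the choice. Without them the median of the 80 loci was -0.05, against -0.07 over all rows, and 49 values were negative and 31 positive. Then 9 loci were called lower and 1 higher, where 34.3% of all rows were called lower and 27.7% higher. Of these 9, 8 were also called lower with all libraries (RPSA, RPS3, RPS4X, RPS6 of 37683 bp, RPS12, RPS18, RPL24 and RPL36A of 3548 bp), and RPL6 was added. Leaving out either library alone gave 11 lower calls, with the share of all rows in those runs not given here. With the animal as a block, 7 loci were lower and 1 higher, with a median of -0.16 and with 27.8% of all rows called lower and 27.9% higher. The 7 were those of the 8 just named other than RPS12, and the adjusted edgeR p of the other 12 loci called lower with no block was 0.0503 to 0.261.

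**Figure D3:**
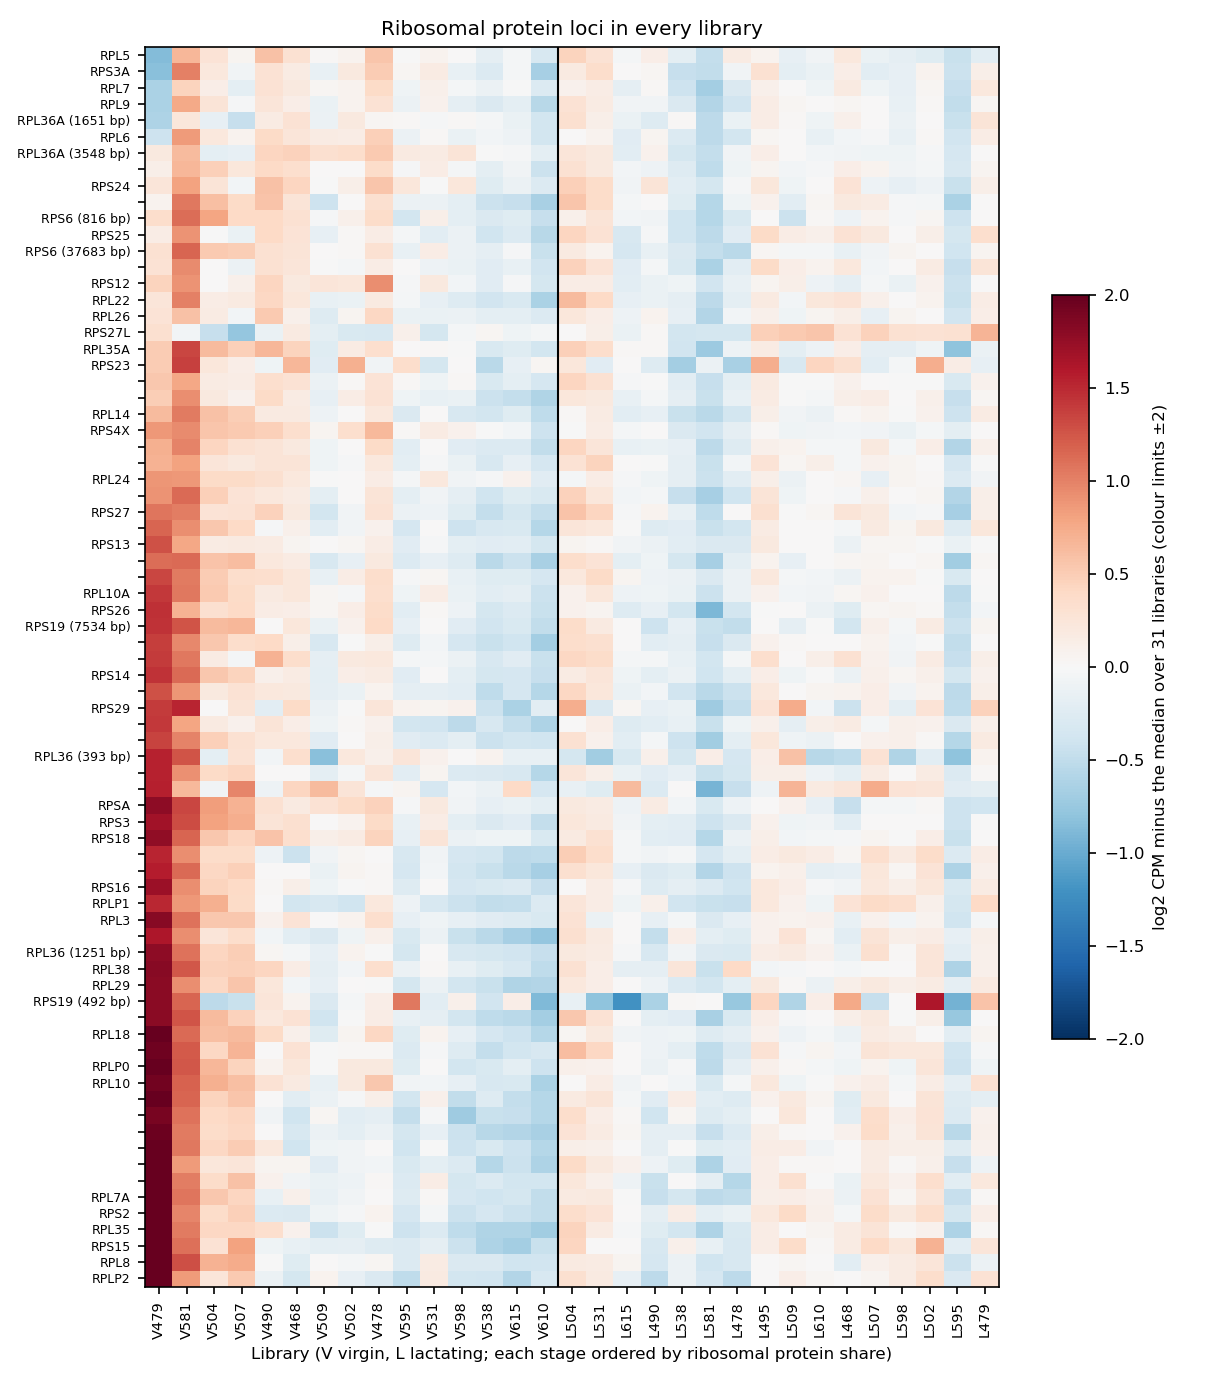
Log2 CPM of 76 ribosomal protein loci (rows, those discussed in the text labelled, ordered by their level in V479 relative to the other virgin libraries) in 31 libraries (columns, virgin left of the line, each stage ordered by ribosomal protein share), minus the median of the locus over all libraries; colours stop at ±2. V479 runs from blue at RPL5 (0.525-fold of the 13-library median) to dark red at RPLP2 (6.70-fold), V581 is red in nearly all rows, and RPS27L is red in many of the lactating libraries.

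Among the 34 loci of the 40S subunit, 10 were called lower and 1 higher, with a median of -0.26. The smallest p was that of RPS4X, a small subunit protein encoded on the X chromosome in humans. RPS4X had 332 CPM in the lowest, 557 CPM in the median and 850 CPM in the highest virgin library, and 341, 425 and 492 CPM in lactating libraries. Lactating libraries lay in the lower part of the virgin range, V581 and V479 were highest, and 13 of 15 animals were lower in lactation. Its log2 fold change was -0.43 ± 0.11 (SE; adjusted edgeR p = 0.0010), and -0.34 without V479 and V581 (adjusted edgeR p = 0.0013).

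RPSA, the laminin receptor protein of the small subunit, had the lowest log2 fold change of the 80 loci. Its virgin values were 519 CPM (lowest), 731 CPM (median) and 2071 CPM (V479), and its lactating values were 432, 575 and 683 CPM. The lactating median was near the lower end of the virgin range, and V581 was second highest at 1501 CPM. It fell by 0.59 ± 0.16 on the log2 scale (adjusted edgeR p = 0.0024, lower in 11 of 15 animals) and by 0.35 without V479 and V581 (adjusted edgeR p = 0.0050).

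RPS3 and RPS18 had the same shape. RPS3, which lies at the entry of the mRNA channel, had 320, 493 and 1416 CPM in the lowest, median and highest virgin library and 332, 424 and 522 CPM in lactating libraries. It fell by 0.50 ± 0.17 (adjusted edgeR p = 0.0103) and was lower in 10 of 15 animals, though its deposited locus is 2.81 times the RefSeq span of the gene. RPS18, in the head of the subunit, had 178, 262 and 752 CPM in virgin and 148, 216 and 270 CPM in lactating libraries, and fell by 0.49 ± 0.16 (adjusted edgeR p = 0.0081, lower in 11 of 15 animals). For both, V479 was the highest virgin library, and without V479 and V581 the falls were 0.26 (adjusted edgeR p = 0.0466 for RPS3 and 0.0240 for RPS18).

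RPS6, the substrate of the S6 kinases downstream of mTOR, was called lower at both of its loci. The locus of 37683 bp, 8.23 times the RefSeq span, had 207, 315 and 632 CPM (V581) in virgin and 194, 273 and 320.0 CPM in lactating libraries, and fell by 0.34 ± 0.12 (adjusted edgeR p = 0.0149, lower in 13 of 15 animals). The locus of 816 bp, shorter than the gene, fell by 0.33 ± 0.13 (adjusted edgeR p = 0.0317), a call lost without V581, V504 or L581 alone, and reads of near-identical copies cannot be told apart here. RPS12, in the head of the subunit, had 270, 394 and 658 CPM (V478) in virgin and 258, 323 and 382 CPM in lactating libraries, so its highest value came from another library. It fell by 0.32 ± 0.11 (adjusted edgeR p = 0.0146, lower in 12 of 15 animals), and the adjusted p was 0.0503 with the animal as a block.

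Other lower calls of the small subunit were lost without the 2 high libraries. RPS26 (-0.39 ± 0.14) and RPS19 of 7534 bp (-0.40 ± 0.16) had adjusted edgeR p-values of 0.0216 and 0.0362, and of 0.0723 and 0.204 without V479 and V581. The call of RPS26 was lost on leaving out V479 alone, and that of RPS19 of 7534 bp on leaving out any of 9 single libraries (V479, V581, V504, V507, L468, L478, L490, L581 and L595). RPS26 and RPS19 are among the genes mutated in human Diamond-Blackfan anaemia. RPS26 has a locus 13.7 times its RefSeq span, so its counts cannot be assigned to the ribosomal protein gene alone.

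RPS27L was the only locus called higher. This gene encodes a paralogue of RPS27 and is a p53 target in human cells. It had 7.15, 11.6 and 15.3 CPM in the lowest, median and highest virgin library and 9.44, 15.0 and 19.6 CPM in lactating libraries, so the groups overlapped over most of the virgin range. It rose by 0.33 ± 0.12 on the log2 scale (adjusted edgeR p = 0.0158, higher in 11 of 15 animals), by 0.30 with the animal as a block (adjusted edgeR p = 0.0396) and by 0.35 without V479 and V581 (adjusted edgeR p = 0.0093). Without TMM factors the sign turned, to -0.21.

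Of the 46 loci of the 60S subunit, 9 were called lower, with a median of -0.26. RPL24, which bridges the subunits, had 223, 289 and 483 CPM in the lowest, median and highest virgin library and 194, 252 and 290 CPM in lactating libraries. It fell by 0.31 ± 0.10 (adjusted edgeR p = 0.0090) and was lower in 12 of 15 animals, but its deposited locus is 11.9 times the RefSeq span and its counts are those also listed under ZBTB11.

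RPL36A, near the site where spent tRNA leaves the ribosome, split by locus. The locus of 3548 bp had 68.1, 89.3 and 121.9 CPM in the lowest, median and highest virgin library and 56.4, 74.9 and 92.9 CPM in lactating libraries, and fell by 0.27 ± 0.09 (adjusted edgeR p = 0.0114). V479 was at the virgin median of this locus, and the value without V479 and V581 was -0.26. The locus of 1651 bp had 31.5, 47.6 and 59.2 CPM in virgin and 33.7, 48.3 and 60.0 CPM in lactating libraries, with a log2 fold change of 0.02 ± 0.09 (adjusted edgeR p = 0.904), and their difference was not tested.

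V479 and V581 were again highest for the proteins of the ribosomal stalk. RPLP0, the base of the stalk, had 699.7, 981 and 3725 CPM in the lowest, median and highest virgin library and 654, 915 and 1109 CPM in lactating libraries. Medians of the stages were close, V479 and V581 (2215 CPM) were far above them, and the log2 fold change was -0.45 ± 0.18 (adjusted edgeR p = 0.0374), and -0.12 without these libraries (adjusted edgeR p = 0.296). RPLP1 had a higher median in lactation (836 against 641 CPM) with a log2 fold change of -0.11 ± 0.17 (adjusted edgeR p = 0.618). RPLP2 likewise had a median of 113 CPM in lactation against 99.5 CPM, with a log2 fold change of -0.36 ± 0.23 (adjusted edgeR p = 0.186), and 0.10 without V479 and V581.

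RPL8, RPL3, RPL18, RPL35A, RPL10A and RPL36 of 393 bp made up the rest of the lower calls, with log2 fold changes of -0.56 to -0.36. RPL8 and RPL3 both lie close to the peptidyl transferase centre. RPL8 had a virgin median of 341 CPM and a lactating median of 344 CPM, with V479 at 1947 CPM, and its log2 fold change of -0.56 ± 0.23 (adjusted edgeR p = 0.0374) became -0.10 without V479 and V581 (adjusted edgeR p = 0.479). RPL3 went from -0.41 ± 0.16 (adjusted edgeR p = 0.0348) to -0.14 (adjusted edgeR p = 0.203). None of these 6 loci was called without V479 and V581. RPL36 of 393 bp was at 0.480 to 2.90 CPM in virgin libraries, and RPL18 has a locus 13.4 times its RefSeq span.

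Among loci not called, RPL10, which joins the large subunit late in its assembly, had a log2 fold change of -0.40 ± 0.18 (adjusted edgeR p = 0.0568). Among the loci with the largest p-values were RPL22 (-0.03 ± 0.13), RPS25 (0.02 ± 0.12) and RPL36A of 1651 bp, with adjusted edgeR p-values of 0.878 to 0.926. RPS25 is needed for translation from internal entry sites. RPS27, RPL26 and RPL7 were not called either, at -0.11 ± 0.15, -0.11 ± 0.10 and -0.12 ± 0.10. A p that misses the threshold does not show that a gene was equal in both stages.

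Scaling changed the size of the difference. Without TMM factors, that is with library totals that include the milk protein genes, the median of all rows shifted by -0.47, from -0.08 to -0.56, and 58.8% of all rows were called lower. The median of the 80 loci was then -0.69, and 79 were called lower. Relative to the median of all rows, the 80 loci stood at -0.18 with TMM factors and -0.14 without them.

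**Figure D4:**
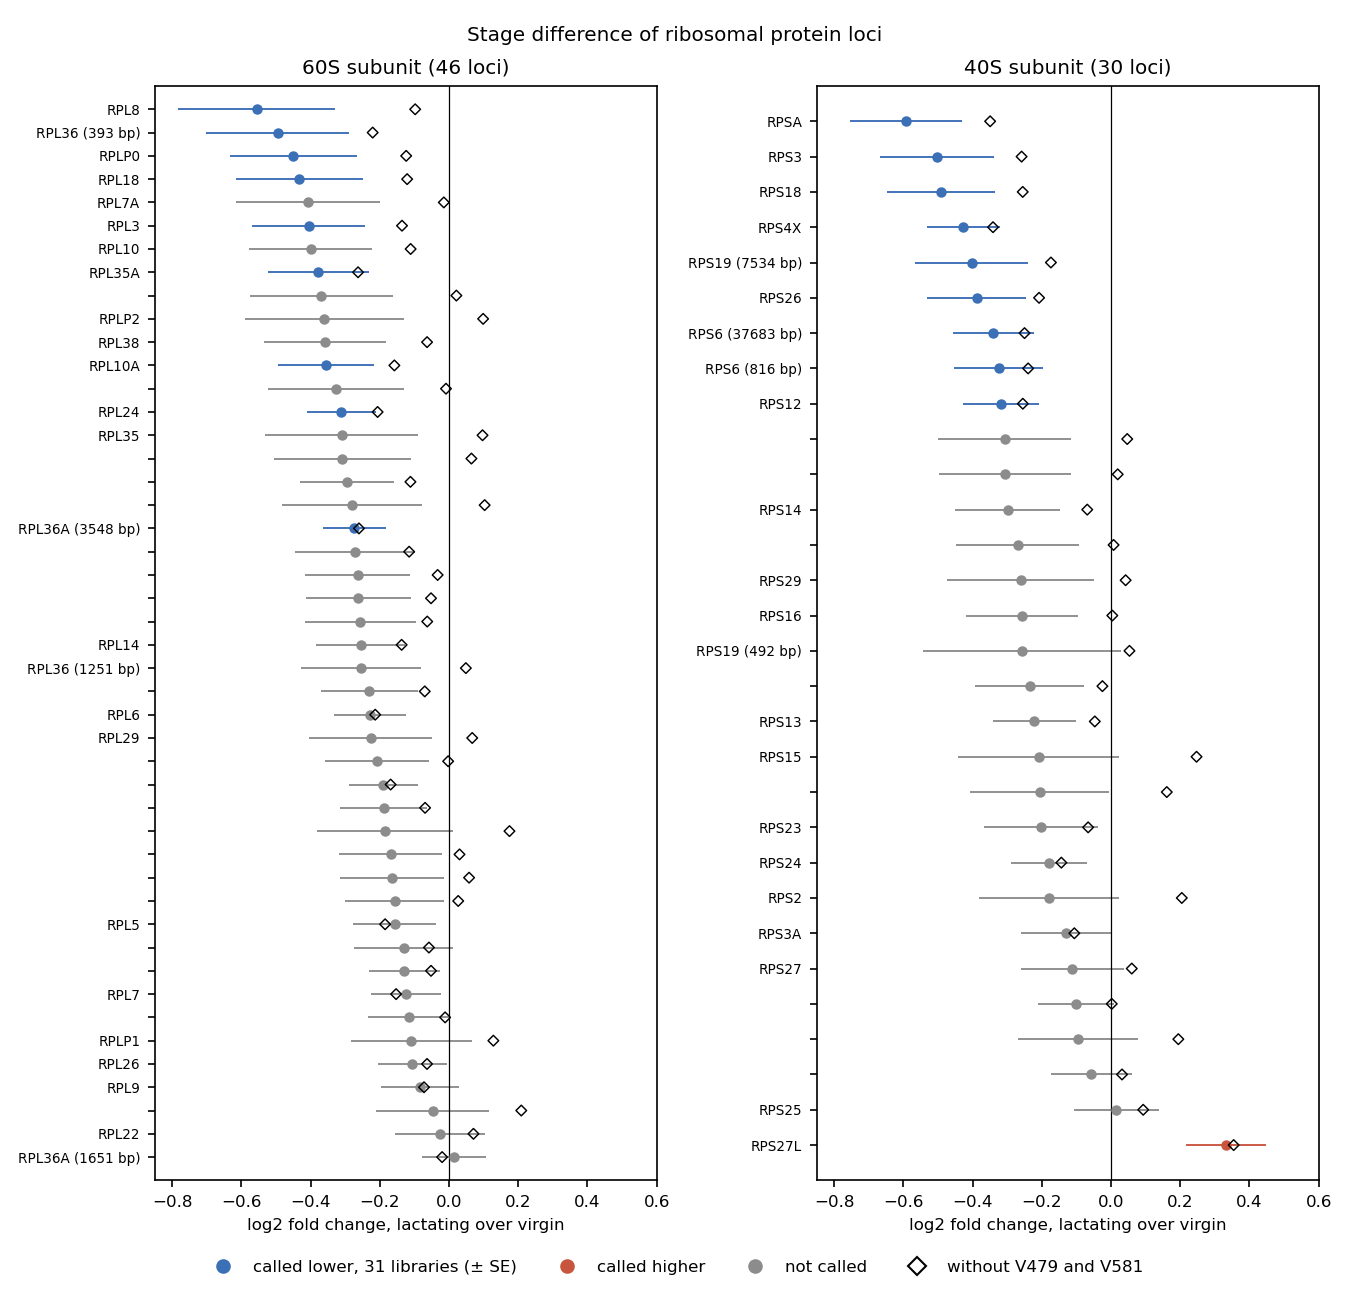
Log2 fold change (lactating over virgin) of each locus with all 31 libraries (circles with SE bars) and without V479 and V581 (diamonds), for 46 loci of the 60S and 30 of the 40S subunit, those discussed in the text labelled. With all libraries 18 of these loci are called lower (blue) and RPS27L higher (red); most diamonds lie to the right of their circles, and the median over all 80 loci moves from -0.26 to -0.05.

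The lactating libraries varied widely in milk protein share, and each locus was also fitted against the log2 of that share over the 16 lactating libraries. A slope is the change in log2 expression for each doubling of the share. Of the 80 loci, 8 (10%) were called with a positive slope and 0 with a negative one by edgeR's quasi-likelihood test, against 19.5% and 17.5% of all rows tested. Slopes with TMM factors were small, from -0.03 to 0.14, with a median of 0.03 against 0.005 over all rows. Of the 80, 76 were positive, a pattern that turned without TMM factors, as given below. RPS27L (0.13 ± 0.02, adjusted edgeR p = 0.00011), RPS23 of the decoding centre (0.13 ± 0.04, adjusted edgeR p = 0.0064) and RPLP1 (0.09 ± 0.03, adjusted edgeR p = 0.0100) had the smallest p-values. RPS13, RPS16, RPL29, RPL14 and RPL7A followed, while RPS24 and RPL35A were among those with the largest p-values (adjusted edgeR p = 0.820 to 0.847).

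The slope calls changed with single libraries. There were 2 without L478, 3 without L581, 4 without L479, 4 without L502 and 5 without each of L495, L507 and L598. The share of all rows called in these runs is not given here. Without TMM factors the 80 loci had 0 positive and 4 negative calls (RPL5, RPL38 and RPSA among them), where 6.04% of all rows were called positive and 43% negative. The median slope was then -0.06 against -0.09 over all rows, and 77 of the 80 slopes were negative.

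Paralogues were compared within each library as the log2 ratio of counts (plus a pseudocount of 0.5), which no scaling of the library can alter. Of the 5 pairs tested, a set chosen with earlier results known, 1 differed with stage. RPL22L1, a paralogue of the RNA-binding protein RPL22, had 39.5, 63.4 and 87.3 CPM in the lowest, median and highest virgin library and 28.2, 33.9 and 50.5 CPM in lactating libraries. It fell by 0.85 ± 0.10 on the log2 scale (adjusted edgeR p = 3.4e-08) and was lower in 15 of 15 animals, while RPL22 had 85.1, 127.7 and 266.9 CPM in virgin and 92.1, 135.4 and 204.5 CPM in lactating libraries. For RPL22L1 the median lactating library lay below the lowest virgin library, although the ranges overlapped, and the stages overlapped almost fully for RPL22.

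The log2 ratio of RPL22L1 to RPL22 was -1.10 ± 0.42 (SD, n = 15) in virgin and -1.93 ± 0.27 (SD, n = 16) in lactating libraries. The difference of -0.83 ± 0.13 (SE) gave an adjusted p of 0.0001 in a permutation test (two-sided, 100000 resamples), the smallest that so many resamples can give over 5 pairs. It was lower in lactation in 14 of 15 animals. V479 had the lowest virgin ratio (-1.98), and without V479 and V581 the difference was -0.94.

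For RPS27L over RPS27 the difference was 0.38 ± 0.17 (SE), higher in 12 of 15 animals, with an adjusted p of 0.0933 by the permutation test, or 0.0515 with animals as pairs. RPL26L1 over RPL26 gave 0.22 ± 0.11 (SE), also with an adjusted p of 0.0933 by the permutation test and higher in 12 of 15 animals. Without V479 alone it was 0.28 (permutation adjusted p = 0.0177), and without V479 and V581 0.29 (permutation adjusted p = 0.0159). The RPL26L1 locus is 19.1 times its RefSeq span and that of RPL26 is 5.82 times. The RPL26L1 counts are those also listed under ERGIC1, so this ratio cannot be assigned to RPL26L1 alone. RPL7L1 over RPL7 differed by 0.08 ± 0.16 (SE) and the locus named RPS4Y1 over RPS4X by 0.01 ± 0.21 (SE), with adjusted p-values of 0.800 and 0.953 by the permutation test.

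The locus named RPS4Y1 had a log2 fold change of -0.46 ± 0.16 (adjusted edgeR p = 0.0184), close to that of RPS4X. The animals were cows, so this name, that of a Y-linked gene in humans, cannot be taken at face value. RPL26L1 and RPL7L1 were not called (0.07 ± 0.14 and -0.07 ± 0.12).

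**Figure D5:**
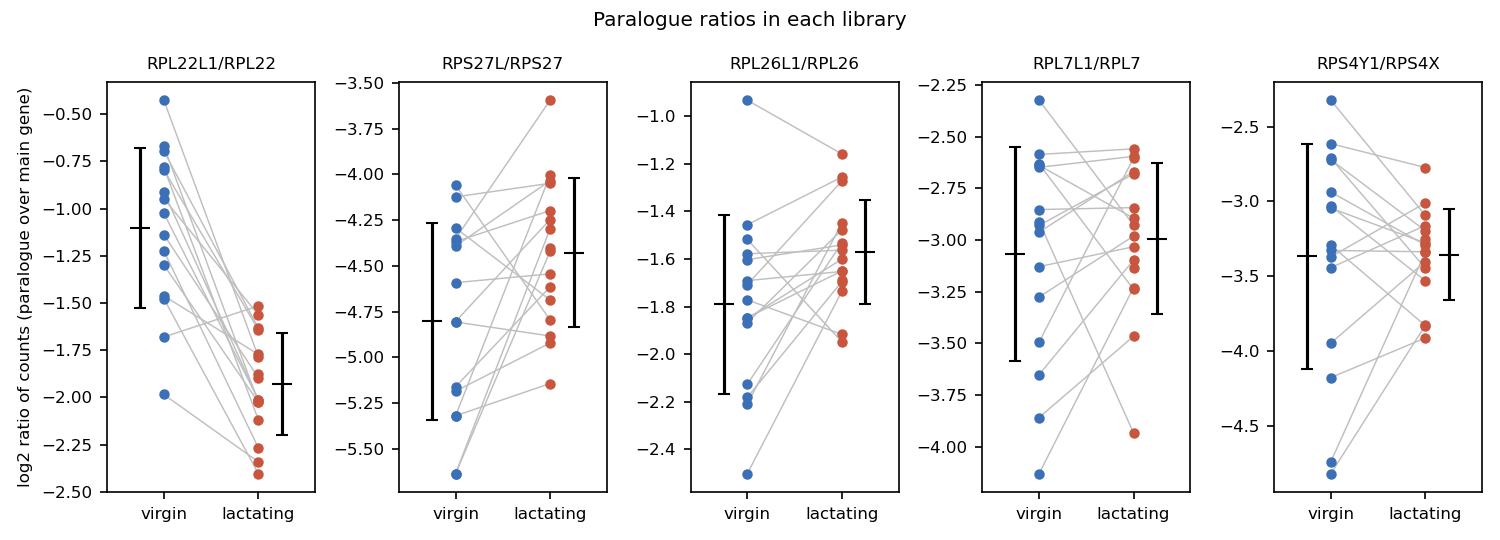
Log2 ratio of the counts of each paralogue to its main gene in every library, by stage, with grey lines joining the stages of an animal and bars at the mean ± SD; each panel has its own axis. RPL22L1 over RPL22 falls from a mean of -1.10 to -1.93, and the other 4 pairs overlap widely.

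The loci rose and fell together from library to library. Over the 77 loci whose mean log2 CPM reached 2, the median pairwise correlation of log2 CPM was 0.850 (Pearson) and 0.861 (Spearman) over 15 virgin libraries, 0.826 and 0.830 without V479 and V581, and 0.769 and 0.709 over 16 lactating libraries. For 78 mitochondrial ribosomal protein loci, taken with no such cut-off on level, the Pearson medians were 0.334, 0.431 and 0.267. Some of these had few counts, such as MRPL50 with means of 7.10 CPM in virgin and 3.35 CPM in lactating libraries. The part of count level in the lower correlations was not tested. The correlations are descriptions, and all loci of a library share its depth and scaling factor. RPL36A of 1651 bp, RPL7, RPL5 and RPS27L were among the loci that followed the others least over 15 virgin libraries, with correlations to their median of -0.217, -0.083, -0.032 and 0.109. Without V479 and V581 these correlations were 0.121, 0.554, 0.765 and -0.615, in the same order. Over the lactating libraries they were 0.869, 0.866, 0.604 and 0.488. The SD of log2 CPM between libraries of a stage had a median over loci of 0.535 in virgin, 0.306 in the 13 other virgin and 0.241 in lactating libraries.

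RACK1 is not covered by the naming rule but was also measured. This gene, for a 40S scaffold for signalling kinases, had 491, 763 and 2035 CPM (V479) in the lowest, median and highest virgin library and 477.8, 588 and 677 CPM in lactating libraries. It fell by 0.62 ± 0.16 (adjusted edgeR p = 0.0012, lower in 11 of 15 animals), much as RPSA did, and by 0.39 without V479 and V581 (adjusted edgeR p = 0.0017), with a locus 4.28 times its RefSeq span. The RACK1 counts are those also listed under TRIM52. FAU and RPL36AL are not analysed here.

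Other parts of the translation machinery were read from lists whose choice is described with the processing. Their counts are to be read against the 30.9% of all rows called lower and 24.2% called higher. Of 6 elongation factor rows, 2 were called lower and 0 higher (median -0.27): EEF2, which moves the ribosome along the mRNA (-0.38 ± 0.13, adjusted edgeR p = 0.0136), and EEF1G (-0.53 ± 0.19, adjusted edgeR p = 0.0189). EEF1E1, an elongation factor by gene name only, was next by p-value and not called (-0.32 ± 0.16). With the animal as a block the adjusted edgeR p was 0.0516 for EEF2, 0.106 for EEF1G and 0.0255 for EEF1E1. Of 39 initiation factor rows, 15 were called lower and 4 higher (median -0.22). The cap-binding EIF4E2 fell by 1.03 ± 0.10, EIF2B1 fell by 1.19 ± 0.20 and EIF4G2 rose by 0.75 ± 0.09, with adjusted edgeR p-values of 6.4e-06 or less. Of 16 rows of other TOP mRNA genes, 4 were lower (RACK1, EIF4B, EEF2 and EEF1G) and 0 higher, with a median of -0.16, and EIF4B fell by 0.36 ± 0.10 (adjusted edgeR p = 0.0018).

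Genes that build ribosomes were also read from such lists. Large subunit assembly had 21 of 37 rows lower and 2 higher (median -0.45), small subunit assembly 29 of 55 lower and 3 higher (median -0.42), RNA polymerase I 11 of 20 lower and 0 higher (median -0.51), and the chaperones and importers of ribosomal proteins 7 of 14 lower and 0 higher (median -0.29). The median of the 80 ribosomal protein loci was -0.26. Without V479 and V581 the list medians were -0.53, -0.49, -0.51 and -0.36, and that of the 80 loci was -0.05. Both libraries were picked for their high ribosomal protein share, so this wider gap follows in part from that choice. Examples are POLR1A, the catalytic subunit of RNA polymerase I (-1.35 ± 0.20), its promoter factors TAF1B (-1.42 ± 0.15) and TAF1A (-1.08 ± 0.17), and the small subunit assembly factors DDX10 (-1.48 ± 0.18), BMS1 (-1.30 ± 0.14) and WDR3 (-1.20 ± 0.17). EFL1 (-0.92 ± 0.10) and GNL3L (-0.67 ± 0.09) of the large subunit list were lower, and RSL24D1 (0.82 ± 0.11) was higher. The RSL24D1 locus is 6.12 times its RefSeq span and its counts are those also listed under RAB27A and CCPG1. Its rise cannot be assigned to RSL24D1 alone. PRMT3, which methylates RPS2 (-0.80 ± 0.10), and the import receptors IPO5 (-0.44 ± 0.08) and TNPO2 (-0.41 ± 0.10) fell, with the counts of TNPO2 also listed under FBXW9. All of these genes had adjusted edgeR p-values of 0.00078 or less.

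In the list of growth signalling to ribosomes, 9 of 23 rows were lower and 2 higher (median -0.22). MTOR fell by 0.70 ± 0.09 and its partner RPTOR by 0.39 ± 0.09, and the kinase gene RPS6KA3 rose by 1.12 ± 0.15 (adjusted edgeR p = 0.00067 or less for each). LARP1, named after its value was seen, fell by 0.41 ± 0.11 (adjusted edgeR p = 0.0020). Mitochondrial ribosomal proteins had 25 of 78 rows lower and 5 higher (median -0.23), against 30.9% and 24.2% of all rows, with MRPS9 (-1.35 ± 0.17), MRPL50 (-1.08 ± 0.13) and MRPS27 (-0.97 ± 0.11) at the smallest p-values, so their median was close to that of the cytosolic loci.

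RPKM values from the authors' deposited table are per kilobase of a locus that includes introns, so they rank genes by span as well as by RNA. On that scale RPLP1 (390.0 virgin, 359.9 lactating), RPL10 (330.3 and 248.9) and RPLP0 (295.5 and 215.0) were among the loci with the highest group means. The lowest were those of RPL36 of 393 bp, RPS19 of 492 bp, RPS14 and RPS27L, at 2.00 to 3.91 RPKM, and the RPS14 locus is 3.97 times its RefSeq span. In the authors' deposited table all 80 loci had an adjusted p of 1, as did 10132 of all 14084 rows, and 76 had a lower value in lactation, with a median log2 fold change of -0.24.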

How the data were processed

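RNA sequencing libraries of 15 virgin and 16 lactating samples were used. Libraries were strand-specific, from poly-A RNA with synthetic spike-ins, per the labels' protocols, and 0 spike-in rows were found in the table. The counts are whole read counts per gene as deposited by the authors, with no normalization, and the RPKM values and log2 fold changes and adjusted p-values of a second table were also computed by the authors. The genome build was UMD3.1 and the tools included featureCounts 1.5.2, StringTie 1.3.2, HISAT2 2.0 and edgeR, per the submitters' processing notes. How reads that map to several copies were counted, and with which strand setting, is not given in the sources used here, so near-identical copies and overlapping genes are uncertain. Locus lengths recovered from counts and RPKM (whole to within 1.77e-07) were set beside RefSeq gene spans: 16 of 80 loci were over 2 times theirs, and 3 shared all counts with a gene of another name. Coordinates are left out, since the RefSeq table is on a different assembly.

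Counts were fitted with edgeR 4.0.16 in R 4.3.3 (filterByExpr with minimum count 10 and minimum total 15, TMM, robust quasi-likelihood, group as the only term), which kept 13180 rows. The SE is the log2 fold change over the square root of F. Slopes were fitted on 16 lactating libraries, where 12156 rows passed. CPM values use TMM-scaled totals of all rows. The fits were tested on simulated data. Same-numbered libraries come from the same animal per the series' design; the correlation of their deviations was 0.0702 to 0.392, and 12 of 15 were over 0.1. In the main stage fit and the permutation of libraries, p-values measure the spread between libraries and ignore that 15 animals gave both stages. The pairing enters only with the animal as a block or with animals as pairs. Each lactating library is from another animal, so the slope p-values measure the spread between animals.

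The members, gene lists, tests and alternatives were chosen with earlier results of these data known. Named were the 8 loci with the smallest and 4 with the largest stage p, those called higher, the 4 highest and 4 lowest by RPKM, the paralogue pairs, the stalk proteins, RPSA, RPS6 and RACK1, the 3 smallest and 3 largest slope p, and the 3 smallest p of each other list. Some loci that this rule names are not reported here. Other loci, the paralogue ratio tests (pseudocount 0.5, permutation of libraries) and the runs without V479 and V581 were chosen after values were seen. Alternatives were other scalings, filters and tools (limma 3.58.1, DESeq2 1.42.0), the animal as block, and leaving out libraries.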

Additional observations from a re-analysis of the deposited data

How the results depend on the processing

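With all libraries 19 loci were called lower and 1 higher. Lower calls numbered 79 without TMM factors, 10 with limma-voom, 7 with the animal as a replicate block, 5 without the 5 animals whose virgin title carries a letter, 12 without L478 and L538 and 9 without V479 and V581. Leaving out each library in turn gave 11 to 27 lower calls, with 11 without V479, 11 without V581 and 27 without V610. The higher call, RPS27L, was absent (0 calls) without TMM factors and without the animals with lettered titles, and was 1 with each library left out in turn. The cause of these changes was not tested. DESeq2, the other scalings and the other filters stayed within 1.5 times of 19. Of all rows, 58.8% were called lower without TMM factors, 27.8% with the block and 34.3% without V479 and V581. For the other runs this share is not given here, so their counts cannot be read against it.

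The median log2 fold change was -0.32 to -0.12 with each library left out and -0.69 to -0.05 over all alternatives, negative in each. Slope calls were 4 without TMM factors (all negative) and 2 to 11 with each lactating library left out, where the share of all rows is not given here. The share difference (lactating minus virgin) was -2.08 to -1.68 points with each library left out, and -0.377 points without V479, V581 and the milk protein genes.

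Among the 61 named genes, 4 signs reversed without TMM factors: RPS27L (-0.21), RPL26L1 (-0.40), RPS25 (-0.46) and RPL36A of 1651 bp (-0.48). With the animal block 9 of the 61 lost their call and 1 gained it, and without V479 and V581 7 lost it and 1 gained it; the block changed no other call among them. With single libraries left out, the lower call was lost for RPL18 in 18 cases, RPL36 of 393 bp in 12, RPL8 and RPS19 of 7534 bp in 9 each, RPLP0 in 5, RPL3 and RPS6 of 816 bp in 3 each, and RPS26 and RPL10A (V479) and RPL35A (V581) in 1 each, and the remaining 8 loci held in all 31.

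Counting depth limits RPL36 of 393 bp, RPS19 of 492 bp and RPS29 most, with virgin medians of 0.995, 1.27 and 1.10 CPM. Reads of near-identical loci cannot be told apart.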
